A study of Pan troglodytes with 38 samples.

Results

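The genes described here are 8 members of the dystrophin-glycoprotein complex and its link to laminin, namely DMD, UTRN, DTNA, DAG1, SGCA, SGCB, SGCD and LAMA2. They were chosen by symbol from the 31373 annotated genes of a chimpanzee count table, of which 18040 carry a symbol. No rule on their measured values was used, but earlier results of these data were known. All 8 reached at least 6 CPM (counts scaled to the same library size) in at least 1 animal, as did 13121 genes of the table. The tissue was post-mortem heart from 38 chimpanzees, and the deposited labels give 1 group. Extraction dates in the sample table of the study put RNA of 17 animals in an earlier year, on 4 dates, and RNA of 21 animals in a later year, on 1 date. Libraries of the earlier year are those sequenced again, so that extraction year and new or resequenced library cannot be told apart. For 7 animals, all of the later year, the table notes hepatitis B or C virus (HBV or HCV), and for the other 14 of that year it does not. Over all hearts the year is thus partly mixed with this note, and some results are also given without the 7 animals. All 7 came from the same primate center, SNPRC, so leaving them out also changes the mix of centers between years. Females numbered 22 and males 16, some of the animals were close relatives, and 34 had a recorded age, between 10 and 57 years.

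Dystrophin is a rod-shaped protein that ties cytoplasmic actin to the membrane of muscle cells. There it binds dystroglycan, whose outer part carries a sugar chain that holds laminin in the basement membrane, while the sarcoglycans steady the complex and dystrobrevin recruits signalling proteins. Loss of dystrophin, of a sarcoglycan or of laminin alpha 2 causes muscular dystrophy, often with cardiomyopathy. Utrophin is a relative of dystrophin that can take its place at the membrane.

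The library size for CPM was the total on orthologous exons, which ranged from 14408012 to 81603350 with a median of 41226040. The fewest counts of a member in any heart were 94, for SGCD, where the counting error is 10.3%. The hearts Little_R and 537, both of the later year, stood apart, with the lowest median correlation with other hearts (0.729 and 0.805). The summed level of 10 cardiomyocyte markers had a median of 105924 CPM, with 13415 CPM in Little_R and 30002 CPM in 537, while 7 fibroblast markers summed to 11158 and 11423 CPM there against a median of 1836 CPM. In bulk tissue, fewer cells of a type and less RNA per cell cannot be told apart. RNA integrity number (RIN) lay between 2.5 and 8.4, and the share of gene counts on mitochondrial genes between 17.2% and 60.1%. Exon lengths were not used here, so levels are compared between hearts and not between genes. Counts were made per gene, so isoforms from different promoters of DMD, UTRN and DTNA are summed.

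DMD (ENSPTRG00000044033), the gene of dystrophin, was between 181 and 347 CPM in the 17 hearts of the earlier year, with a median of 252 CPM. In the 21 hearts of the later year it was between 47.5 CPM in Little_R and 318 CPM in heart 476, with a median of 201 CPM. The top of the range was thus alike in both years, and 10 of the 21 hearts of the later year lay below the lowest heart of the earlier year. UTRN (ENSPTRG00000018680), the gene of utrophin, was between 30.8 and 80.1 CPM with a median of 53.4 CPM in the earlier year, and between 17.1 CPM in 4X0339 and 99.2 CPM in Little_R with a median of 42.9 CPM in the later year. Little_R was therefore the lowest of the 38 hearts for DMD and the highest for UTRN. DTNA (ENSPTRG00000009964), which encodes alpha-dystrobrevin, was between 118 and 397 CPM in the earlier year (median 163 CPM) and between 35.05 and 251 CPM in the later year (median 149 CPM). Its highest value was that of heart 570.

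DAG1 (ENSPTRG00000014926) encodes dystroglycan, the laminin receptor of the complex. It had the narrowest range of the members in the earlier year, from 230 to 387 CPM with a median of 266 CPM, a 1.68-fold range. In the later year it was between 33.5 and 324 CPM with a median of 242 CPM, and 8 of 21 hearts lay below the lowest of the earlier year. The value of 33.5 CPM was that of Little_R, and the next lowest was 107 CPM in 4X0354. SGCA (ENSPTRG00000009391), alpha-sarcoglycan, was between 127 and 286 CPM in the earlier year (median 208 CPM) and between 61.0 and 270 CPM in the later year (median 179 CPM). SGCB (ENSPTRG00000016053), beta-sarcoglycan, was between 87.3 and 161 CPM in the earlier year (median 116 CPM) and between 45.2 and 138 CPM in the later year (median 97.1 CPM). Of the hearts of the later year 6 lay below all those of the earlier year for SGCA and 5 for SGCB, and the rest overlapped. SGCD (ENSPTRG00000042231), delta-sarcoglycan, was the only member whose median was higher in the later year, at 26.4 CPM (6.52 to 43.5 CPM) against 23.7 CPM (10.6 to 43.1 CPM). LAMA2 (ENSPTRG00000018588), the alpha chain of the muscle laminin, was between 240 and 857 CPM in the earlier year (median 451 CPM) and between 168 and 804 CPM in the later year (median 376 CPM). Ranges of the years overlapped for every member. Little_R was the lowest heart for 6 of the 8 members, while its LAMA2 level was 343 CPM, well within the range of the others.

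**Figure D1:**
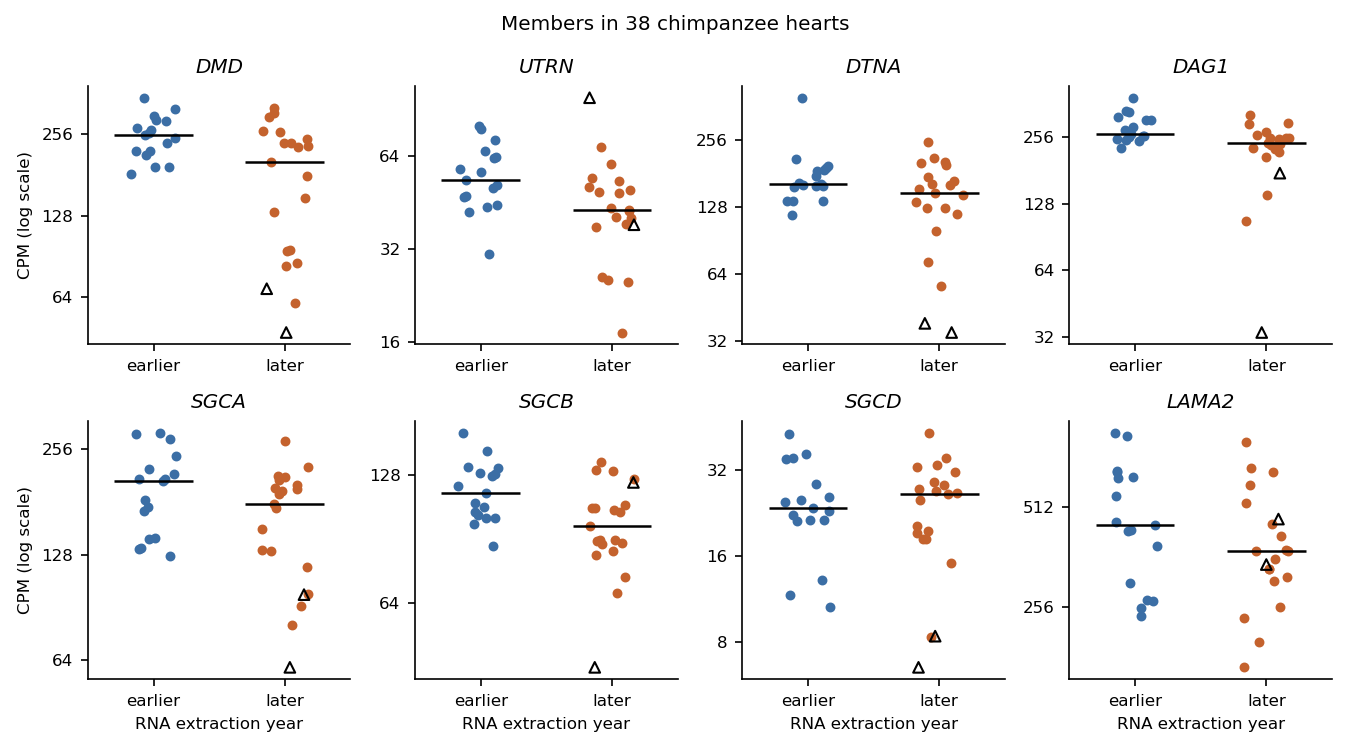
Level of each member in 38 hearts (CPM, log scale) by the year of RNA extraction. Each point is a heart, lines are medians and open triangles are the 2 hearts that stand apart. The 17 hearts of the earlier year lie close together for DMD and DAG1, whereas 10 and 8 of the 21 hearts of the later year lie below all of them.

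Levels were compared between extraction years because this is the main technical difference in the study. SGCB passed the threshold in edgeR, with a log2 difference of −0.31 (SE 0.11, adjusted p = 0.0425) for the later against the earlier year. None of the other 7 members passed, which leaves 1 of 8, where 16.1% of the 15790 genes tested were called and 4.82% were called lower. At an unadjusted p under 0.05 there were 4 members, DMD, UTRN, DAG1 and SGCB, where 30.8% of genes were. The log2 difference of DMD was −0.49 (SE 0.22, adjusted p = 0.130), and that of UTRN was −0.35 (SE 0.16, adjusted p = 0.117). DAG1 gave −0.35 (SE 0.16, adjusted p = 0.135). The values of DTNA, LAMA2 and SGCA were −0.33, −0.33 and −0.31, and that of SGCD was −0.10 (SE 0.22). All 8 log2 differences were below 0, with a median of −0.33, while the median over all genes tested was −0.01 and 51.3% of genes were below 0.

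The call of SGCB did not hold under every setting. Without the 2 hearts that stand apart its log2 difference was −0.24 (adjusted p = 0.0544), with RIN as a covariate it was −0.26 (adjusted p = 0.102), and among the 21 hearts from Yerkes, the center with 12 hearts of the later and 9 of the earlier year, it was −0.13 (adjusted p = 0.631), where 2.08% of all genes were called. Without the 7 animals with HBV or HCV noted, an alternative chosen after seeing the data, SGCB was at −0.31 (edgeR adjusted p = 0.0739), all 8 log2 differences stayed below 0 and no member passed, where 14.4% of genes were called. DESeq2, which called 19.7% of genes, called it at −0.30 (adjusted p = 0.0263). With the mean of the cardiomyocyte markers as a covariate, an alternative chosen after seeing the data, 4.89% of genes were called lower, DMD was called at −0.50 (SE 0.15, edgeR adjusted p = 0.0202) and SGCB missed the threshold (adjusted p = 0.05002). Without the 2 hearts SGCD changed direction, to 0.03.

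**Figure D2:**
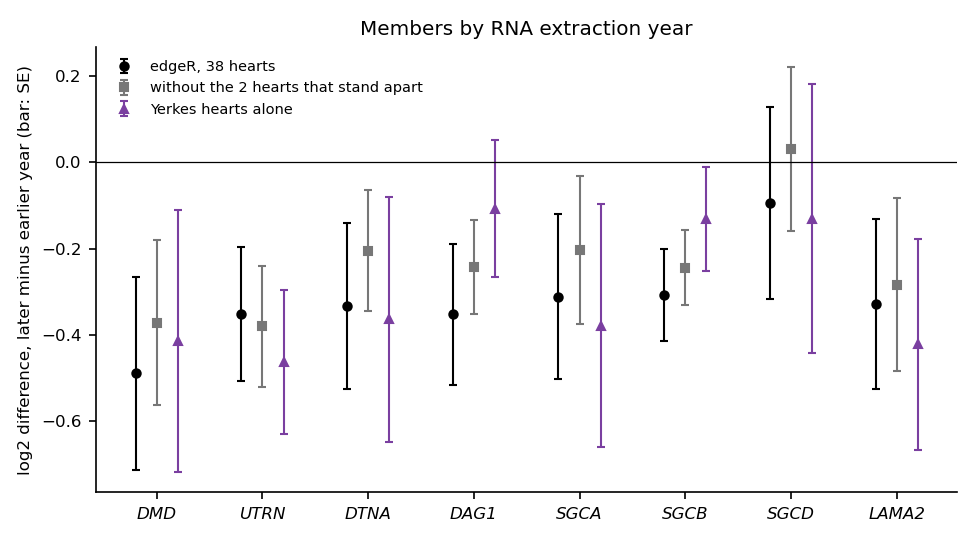
Log2 difference of each member between RNA of the later and of the earlier year by edgeR, for 38 hearts, without the 2 hearts that stand apart, and for the Yerkes hearts alone. Points are estimates and bars are standard errors. The estimates lie below 0 except that of SGCD without the 2 hearts, 0.03, and only SGCB over 38 hearts passed the adjusted threshold.

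Ratios between partner genes within a heart do not depend on the library size. The log2 ratio of UTRN to DMD was −2.19 ± 0.39 (SD, n = 17) in the earlier year and −1.89 ± 0.90 (SD, n = 21) in the later year, a difference of 0.30 that was smaller than the spread between hearts (two-sided permutation test, p = 0.221, adjusted p = 0.441 over 6 ratios). It was between −2.89 and −0.79 in 37 hearts and 1.06 in Little_R, the only heart where UTRN had more counts than DMD. The ratio of DAG1 to DMD had its highest value, 2.16, in 4X0339, with 1.48 in heart 495 next. That of LAMA2 to DAG1 was highest in Little_R, at 3.36. None of the 6 ratios (those of DTNA to DMD, SGCA to SGCB and SGCD to SGCB were the others) passed between years, with unadjusted permutation p-values between 0.195 and 0.813, so that none was under 0.05 before adjustment either. Within the Yerkes hearts the ratio of DAG1 to DMD was 0.49 higher in the later year (permutation p = 0.0432, adjusted p = 0.259).

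The years also differed in how far hearts lay from each other. The SD of log2 CPM of DMD was 0.857 over the 21 hearts of the later year and 0.263 over the 17 of the earlier year, a log2 ratio of SDs of 1.70 (permutation of the years over values centred within year, p = 1e-05, the smallest that the permutations can give, adjusted p = 0.00182 over 13121 genes). The spread was larger in the later year for 6.65% of all genes at this threshold, the median log2 ratio over all genes was 0.44, and 1.17% of genes had a higher ratio than DMD. This test was chosen after seeing the data. Without the 2 hearts that stand apart the log2 ratio for DMD was 1.49 (adjusted p = 0.0150), where 1.33% of genes were called larger, and with RIN taken out by a linear fit within each year it was 1.84 (adjusted p = 0.00135), where 9.91% were. Without the 7 animals with HBV or HCV noted it was 1.72 (adjusted p = 0.00960), where 8.6% were. With the cardiomyocyte marker mean taken out in the same way it was 1.31 and did not pass (adjusted p = 0.260), where 0.526% of genes were called. No other member passed in any of these settings.

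DAG1 had a log2 ratio of SDs of 1.82 (SD 0.706 in the later year and 0.199 in the earlier year), which did not pass (adjusted p = 0.177) and which was 0.88 without the 2 hearts that stand apart. For DTNA the log2 ratio was 1.03 (adjusted p = 0.255). The log2 ratios of the remaining members were lower, and LAMA2, with an SD of 0.574 in the later year and of 0.603 in the earlier year, was the only one with the larger spread in the earlier year.

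The low values of DMD went with a high share of mitochondrial counts. The 8 hearts with the least DMD, all of the later year, were the 8 with the highest mitochondrial percent. They had 47.5 to 132 CPM of DMD at 40.04% to 60.1%, while the other 30 hearts had 148 to 347 CPM at 35.8% or less, so that the sets did not overlap. This number of hearts was chosen after seeing the values, and the share of all genes that separate the same sets was not counted. Of the 5 hearts with the least DMD 4 were among the 5 with the highest mitochondrial percent, and of the 3 with the least DMD 1 was among the 3 highest. Of the 8 hearts with the least DMD, all but 4X0357 (31901012) had an orthologous exon total of 26120173 or less. The other 30 hearts had 31112482 or more. A low library size and a high mitochondrial percent thus went together in these hearts, and the part of library size was not tested. HBV or HCV is noted for 2 of the 8 hearts, 4X0339 and 4X0354. The lowest were Little_R, 4X0339 and 537 at 47.5, 60.9 and 68.9 CPM and 48.4%, 51.7% and 60.1%, and their RIN was 7.8, 2.5 and 7.2. Over 38 hearts the level of DMD fell with mitochondrial percent (Pearson r = −0.79, permutation p = 1e-05, adjusted p = 2.04e-04 over 13121 genes, and Spearman rho = −0.43, permutation p = 0.00702). Only 0.762% of genes had a lower r. Without the 2 hearts farthest from the median share, 537 and 558, r was −0.75. The relation was found in the later year, where r was −0.87 (permutation p = 1e-05, n = 21), and not in the earlier year, where r was 0.29 (permutation p = 0.251, n = 17) and mitochondrial percent stayed between 17.2% and 34.98%. The difference between years was not tested. These relations were chosen after seeing the data. In the same 8 hearts DTNA was between 35.05 and 203 CPM and DAG1 between 33.5 and 272 CPM, which overlapped with the other 30 (from 118 and 221 CPM). The 5 hearts with the highest mitochondrial percent were also the 5 with the least DTNA, at 35.05 to 100 CPM. The other 33 had 118 to 397 CPM of DTNA, so that at 5 hearts DTNA did not overlap, whereas DMD did. The share of all genes without overlap was not counted at 5 hearts either.

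Of the other members, DTNA (r = −0.74), DAG1 (−0.53), SGCA (−0.44), SGCB (−0.44) and SGCD (−0.37) passed the same threshold with mitochondrial percent, each with a negative r, so that 6 of 8 members passed where 20.5% of genes passed with a negative r and 24.9% with a positive r. UTRN and LAMA2, both at −0.34, did not (permutation adjusted p = 0.0763 and 0.0744). With TMM library sizes all 8 members passed, UTRN at −0.43 (permutation adjusted p = 0.0185) and LAMA2 at −0.41 (permutation adjusted p = 0.0233), where 27.7% of genes passed with a negative and 20.8% with a positive r. Without the 7 animals with HBV or HCV noted 5 members passed, where 18.8% of genes did with a negative r, and SGCB (−0.39, permutation adjusted p = 0.0672) did not. DAG1 had a negative r in the later year (−0.42, permutation p = 0.0474) and in the earlier year (−0.69, permutation p = 0.00226). SGCD had r of −0.68 in the later year and 0.58 in the earlier year. With levels and shares centred within year, only DMD (r = −0.74, permutation adjusted p = 7.90e-04) and DTNA (r = −0.70, permutation adjusted p = 0.00173) passed, where 15.4% of genes did with a negative r. Without the 2 hearts that stand apart, r of SGCD was −0.13 and of SGCA −0.28, and neither passed, whereas UTRN (−0.49, permutation adjusted p = 0.0159) and LAMA2 (−0.41, permutation adjusted p = 0.0482) then did, where 16% of genes passed with a negative r.

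**Figure D3:**
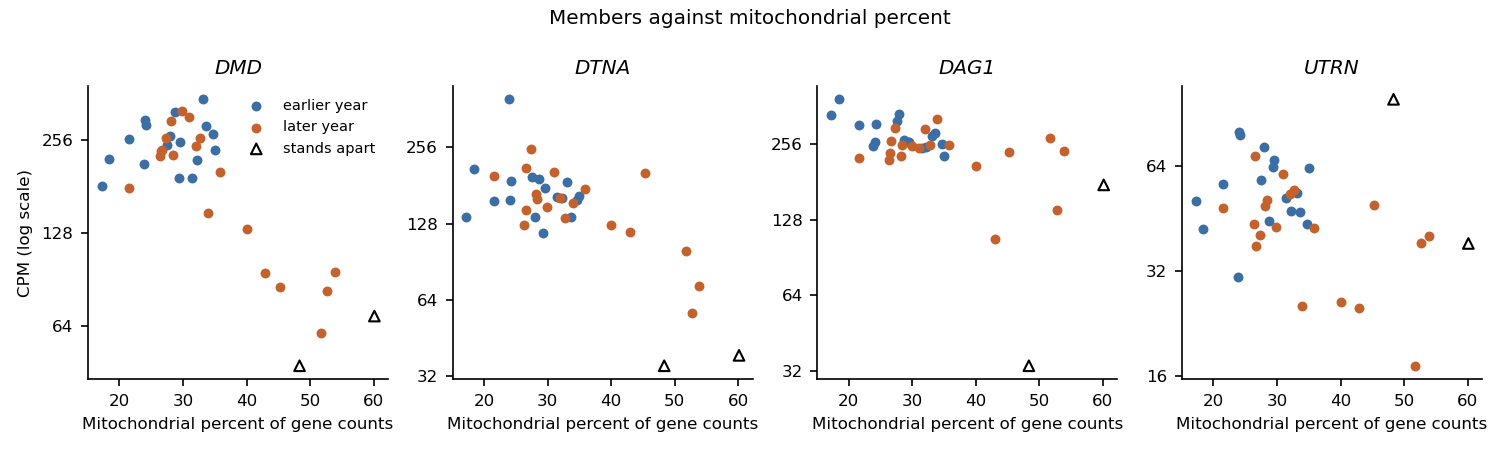
Level of DMD, DTNA, DAG1 and UTRN (CPM, log scale) against the percent of gene counts on mitochondrial genes in each of 38 hearts, coloured by extraction year, with open triangles for the 2 hearts that stand apart. DMD lay between 47.5 and 132 CPM in the 8 hearts at 40.04% or more and between 148 and 347 CPM in the other 30. This cut at 8 hearts was chosen after seeing the values. UTRN was highest, at 99.2 CPM, in a heart at 48.4%.

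Levels were also set against the mean log2 CPM of marker genes of 10 cell types. DMD rose with the cardiomyocyte markers (r = 0.69, permutation p = 4e-05, adjusted p = 2.50e-04, and rho = 0.64, permutation p = 3e-05), and it did so in the later year (r = 0.78) and in the earlier year (r = 0.57, permutation p = 0.0128). Without Little_R and 549, the hearts farthest from the median of those markers, r was 0.67. SGCA had r of 0.69 (permutation p = 1e-05, adjusted p = 1.10e-04, and rho = 0.74, permutation p = 1e-05) and r of 0.73 without the same hearts, with 0.84 in the later year and 0.33 in the earlier year (permutation p = 0.209). SGCD (r = 0.63), DAG1 (0.55) and DTNA (0.52) passed as well, so that 5 of 8 members were positively related to the cardiomyocyte markers where 17.1% of genes were and 41.0% were negatively related. With TMM library sizes 7 were, where 31.1% of genes were positively and 27.3% negatively related, and SGCB (r = 0.56) and LAMA2 (r = 0.37) were added. The values of DAG1 and DTNA rested on the hearts at the edge. Without the 2 farthest hearts r was 0.24 and 0.31, and in the earlier year it was −0.08 and −0.09.

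SGCB, LAMA2 and UTRN did not pass with the cardiomyocyte markers (r of 0.27, 0.18 and −0.08, adjusted p between 0.143 and 0.706). The same 5 members had negative r with the endothelial markers, from −0.69 for DMD to −0.49 for DAG1, where 16.5% of genes were called negative. DMD, DTNA, DAG1 and SGCD did so with the fibroblast markers, from −0.62 for DTNA to −0.37 for DAG1, where 15.1% of genes were. Without Little_R and 537, the endothelial r of DTNA and DAG1 was −0.24 for both and neither passed (permutation adjusted p = 0.257 and 0.251), while DMD (−0.54), SGCD (−0.50) and SGCA (−0.40) did. In the earlier year the endothelial r of DAG1 was 0.16. With the fibroblast markers DTNA alone passed without the 2 hearts (−0.43, permutation adjusted p = 0.0417), and DAG1 was at −0.15. DMD (r = −0.46) and DTNA (−0.53) did so with TNNT3, the 1 expressed gene of the fast skeletal muscle list, where 8.89% of genes were. No member passed over 38 hearts with the atrial, smooth muscle, Schwann, macrophage, adipocyte or red cell lists. SGCB came close with the macrophage markers (r = 0.51, permutation adjusted p = 0.0512, and rho = 0.55, permutation p = 4.6e-04), where 2.03% of genes were called positive, and without the 2 hearts it passed (r = 0.56, permutation adjusted p = 0.0208), where 2.9% were. In all 16 of 80 relations passed, and without the 2 hearts that stand apart 10 did, in which r of DMD with the cardiomyocyte markers was 0.50 (permutation adjusted p = 0.0148) and that of SGCA was 0.53 (permutation adjusted p = 0.00594). The part of the cell types in the other results of the members was not tested beyond the values given above.

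Members varied together in part. Of their 28 pairs, 12 passed the threshold with a positive r and none with a negative r, where 14.9% of all relations between a member and an expressed gene were called positive and 20.1% negative. With TMM library sizes 17 pairs passed, where 25.7% of relations were positive and 20.8% negative. DMD and DTNA had the highest r, 0.72 (permutation p = 1e-05, adjusted p = 2.17e-04, and rho = 0.43, permutation p = 0.00736). This was 0.63 without Little_R and 4X0339, the hearts farthest from the median of DMD, 0.76 in the later year and 0.06 in the earlier year (permutation p = 0.834). The relation was thus not seen over the hearts of the earlier year. Among these, heart 570 had 397 CPM of DTNA and the others 211 CPM or less. The part of heart 570 in that r was not tested. DTNA and DAG1 had r = 0.65 (permutation p = 2e-04, adjusted p = 0.00167) with rho = 0.27 (permutation p = 0.103), which was 0.40 without Little_R and 537, 0.69 in the later year and −0.06 in the earlier year. DMD and DAG1 had r = 0.63 (permutation p = 7e-05, adjusted p = 7.88e-04) with rho = 0.43, 0.59 without the 2 farthest hearts, 0.61 in the later year and −0.03 in the earlier year.

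DAG1 and SGCB, whose proteins both stand in the membrane, had r = 0.62 (permutation adjusted p = 0.00689) with rho = 0.40, which was 0.30 without the 2 farthest hearts, 0.59 in the later year and 0.40 in the earlier year. Among the sarcoglycans, which form 1 complex, SGCA and SGCD had r = 0.50 (permutation adjusted p = 0.00727) with rho = 0.23, SGCB and SGCD had 0.34 (permutation adjusted p = 0.0855), and SGCA and SGCB had 0.11 (permutation adjusted p = 0.648), with r of 0.01 in the later year and −0.11 in the earlier year. LAMA2, made into a secreted protein, passed with none of the other 7, with r between 0.00 and 0.32. UTRN likewise passed with none over 38 hearts, with r of 0.36 with DMD (permutation adjusted p = 0.0729, rho = 0.41). Without the 2 hearts that stand apart, r of UTRN with DMD was 0.64 (permutation adjusted p = 0.00180) and with SGCB 0.57 (permutation adjusted p = 0.00354), and 6 of 28 pairs passed, where 9.58% of relations were positive. The others were those of DMD with DTNA, DAG1, SGCA and SGCB, with r from 0.54 to 0.42. Within a year, r of UTRN with DMD was 0.24 in both. The value of the later year includes the 2 hearts, of which Little_R was the lowest for DMD and the highest for UTRN. That year was not taken without them for this pair.

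**Figure D4:**
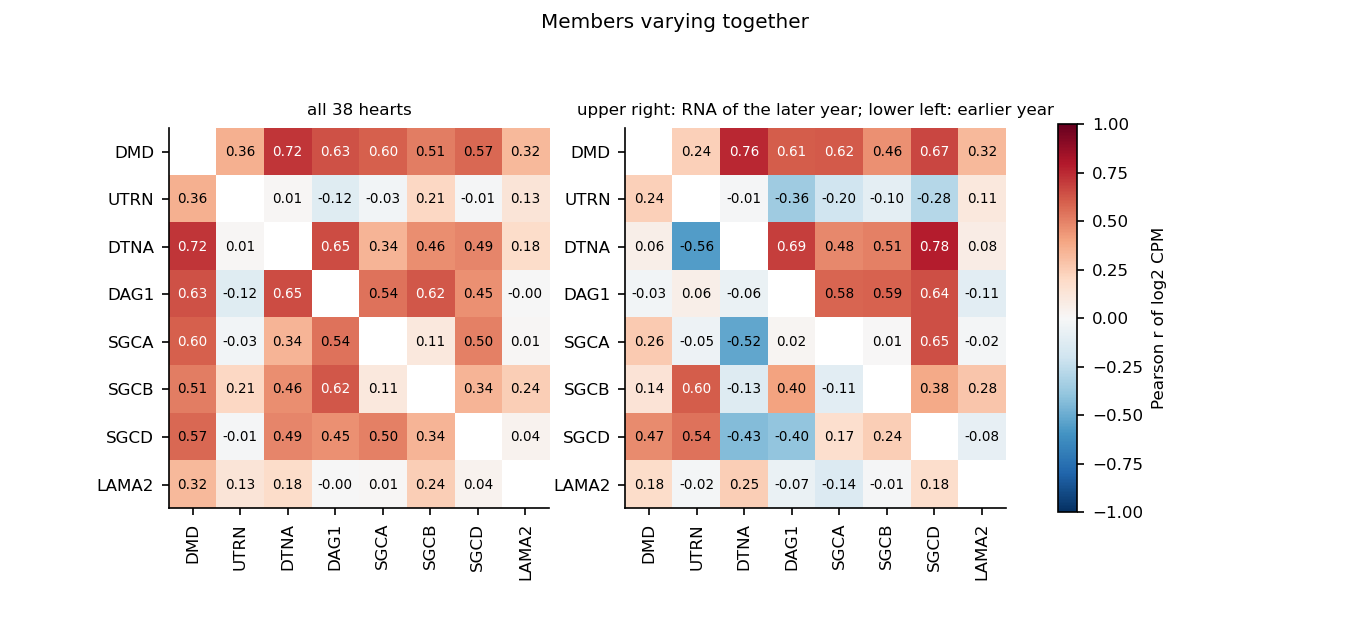
Pearson r of log2 CPM between members, over all 38 hearts at left, and at right over the 21 hearts of the later year (upper right) and the 17 of the earlier year (lower left). Red is positive and blue negative. The block of DMD, DTNA, DAG1 and the sarcoglycans is mostly red in the later year and mixed in the earlier year, with DMD and DTNA at 0.76 and 0.06.

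The genes most like each member were taken as the 3 with the highest r over 38 hearts among 12526 named expressed genes, which is a choice by r and carries no test. For DMD they were DBT, AKAP6 and ZYG11B, with r from 0.93 to 0.94, of which AKAP6 encodes an anchor of protein kinase A in heart muscle. Within the earlier year r of these genes with DMD was 0.67, 0.64 and 0.52. For DTNA they were ANK3, which is also on the list of cytoplasmic partners, LPAR5 and ESRRG (0.88 to 0.90), and for DAG1 MACROH2A2, NUDT19 and CHMP6 (0.88 to 0.92). Those of DAG1 had r of 0.27, 0.47 and 0.24 within the earlier year. SGCD had PPP1R12B, MB and MAOB (0.81 to 0.82), among them the gene of myoglobin, and SGCA had VWC2, OXA1L and BCKDHA (0.82 to 0.83). SGCB had CCPG1, EPS15 and RDX (0.75 to 0.80), and CCPG1 kept 0.79 without the 2 hearts that stand apart. UTRN had ROCK1, MIB1 and LRP6 (0.78 to 0.82). LAMA2 had the lowest values, with RPS6KA2, SLAIN2 and DOCK5 at 0.67 to 0.71, and it had r above 0.5 with 0.671% of genes, where DMD had it with 16.5%.

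Variability between hearts was measured as mean-corrected dispersion. Here the natural logarithm of the negative binomial overdispersion is taken relative to a trend on mean expression, so that 0 is the variability usual at that level. It was above 0 in 7 of 8 members, where 44.4% of all 13121 genes were above 0 with a median of −0.13. It was highest in DMD, 0.70 (SE 0.28 over 1000 redraws of the animals), at rank 2735 of 13121, followed by DTNA with 0.57 (0.37), LAMA2 with 0.40 (0.18), SGCD with 0.31 (0.25), SGCA with 0.17 (0.23), UTRN with 0.10 (0.27) and DAG1 with 0.05 (0.63). SGCB was below 0, at −0.62 (0.30). No neighbours in this order differed by more than the sum of their standard errors. The SD over all genes was 0.92, so that every member lay within 1 SD of the median over all genes.

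The count above 0 and the order rested in part on single hearts. The value of DAG1 was −0.77 and that of SGCA −0.01 without Little_R, and that of UTRN was −0.09 without 4X0339. When both hearts that stand apart were left out, 6 of 8 were above 0, LAMA2 was highest at 0.74, followed by DMD at 0.65, DTNA at 0.31, SGCD at 0.19, SGCA at 0.18 and UTRN at 0.17, and DAG1 was at −0.55 and SGCB at −0.70. In hearts of the earlier year alone, dispersion was −0.54 for DMD and −1.07 for DAG1, and 0.99 for LAMA2 and 0.66 for SGCD. In those of the later year alone it was 0.91, 0.26, 0.13 and 0.38. The order of the members thus differed between years, with LAMA2 the highest in the earlier year and DMD the highest in the later year.

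**Figure D5:**
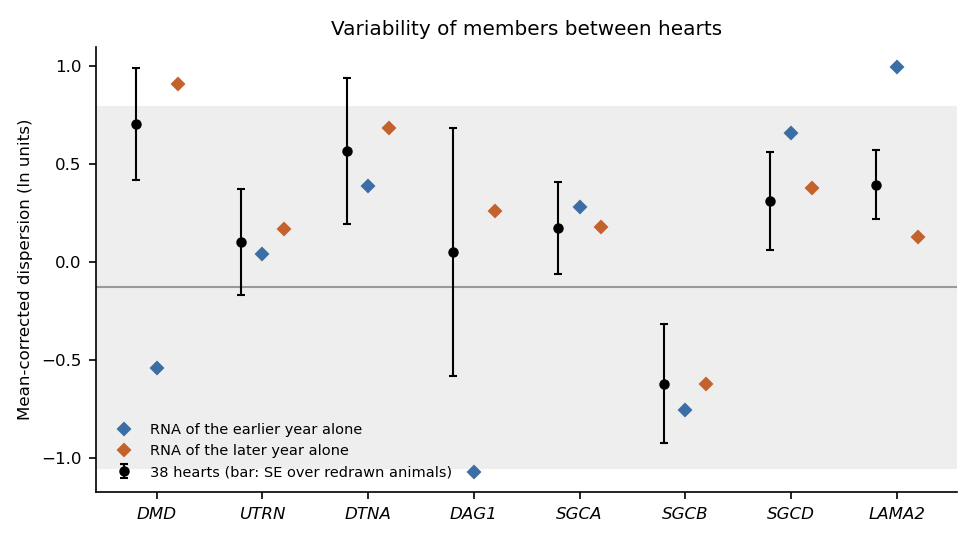
Mean-corrected dispersion (natural log units) of each member over 38 hearts, with bars for the SE over redrawn animals, and over hearts of each extraction year alone (diamonds). The line and band are the median and 1 SD over all genes. DMD and DAG1 are at −0.54 and −1.07 in the earlier year and above 0 in the later year. SGCB is below 0 in all 3 sets. The later year includes the 2 hearts that stand apart, and without them DAG1 was at −0.55 over the remaining hearts of both years.

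RIN was examined because several members have long transcripts and the RNA was selected by its poly(A) tail. No member passed, with extraction year and sex in the model. UTRN came closest, at a log2 slope of 0.15 per unit of RIN (SE 0.05, edgeR adjusted p = 0.167). Its lowest value, 17.1 CPM, was in 4X0339, which had the lowest RIN. DMD had a slope of 0.13 (SE 0.08, adjusted p = 0.483) and LAMA2 of 0.09 (SE 0.07, adjusted p = 0.582), and those of the other members lay between −0.06 and 0.05. edgeR called 0% of 16462 genes at the adjusted threshold and 13.8% at an unadjusted p under 0.05, among them UTRN alone of the members. DESeq2 called 1.06% of genes and no member (UTRN adjusted p = 0.071). Without the 2 hearts that stand apart 3 members had an unadjusted edgeR p under 0.05, where 12.9% of genes did. In the later year without them it was 3 as well, where 4.88% of genes did, and 7 of 8 slopes were above 0. With all hearts of the later year it was 1 (7.49%), and in the earlier year 0 (12.6%). With the cardiomyocyte marker mean as a covariate it was 3 (13.5%). No member passed the adjusted threshold in these settings. The difference of slopes between years passed for no member, and edgeR called 0% of 16910 genes for that difference, with 6.4% and no member at an unadjusted p under 0.05.

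DMD lies on chromosome X, so the sexes were compared. DMD was between 60.9 and 298 CPM in 16 males (median 211 CPM) and between 47.5 and 347 CPM in 22 females (median 237 CPM), with wide overlap and a log2 difference of −0.26 for males (SE 0.23, edgeR adjusted p = 0.824). No member passed, where 0.215% of genes were called, none had an unadjusted p under 0.05, where 8.42% of genes did, and the other log2 differences lay between −0.31 for DTNA and 0.03 for UTRN. With age, the log2 slopes per 10 years over 34 hearts lay between −0.04 for LAMA2 and 0.14 for DMD (SE 0.08, edgeR adjusted p = 0.657). edgeR called 0% of 16309 genes with age, 7.41% had an unadjusted p under 0.05, none of them a member, and DESeq2 called 5 genes and no member.

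Other genes of the pathway were followed through 90 listed genes in 6 groups, of which 83 were tested between years. Of these, 3 were higher and 2 lower in the later year, where 11.2% and 4.82% of all genes were. CAPN3, which encodes the muscle protease calpain 3 and was listed under membrane repair, was at a median of 12.1 CPM in the earlier year and 36.3 CPM in the later year, a log2 difference of 1.36 (SE 0.26, edgeR adjusted p = 3.94e-04). LAMA5, a laminin alpha chain found in vessels and epithelia, rose from a median of 26.2 CPM to 44.4 CPM, with 263 CPM in Little_R (log2 difference 1.08, edgeR adjusted p = 0.00331). KRT19, a keratin that can bind the dystrophin actin-binding region, was called at 1.201 (edgeR adjusted p = 0.0424), but its medians were 3.40 and 4.57 CPM, Little_R had 79.8 CPM, and without the 2 hearts that stand apart it did not pass (adjusted p = 0.242).

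RXYLT1, an enzyme that extends the sugar chain of dystroglycan, was lower in the later year (medians 23.2 and 19.9 CPM, log2 difference −0.46, edgeR adjusted p = 0.00833). ITGB1, the beta chain of the integrins that bind laminin beside dystroglycan, was lower as well (medians 1040 and 880 CPM, log2 difference −0.39, edgeR adjusted p = 0.0238). Both passed without the 2 hearts (adjusted p = 0.0136 and 0.0486). PARVA (−0.42, adjusted p = 0.0520) and LAMA3 (0.32, adjusted p = 0.0634) did not pass in edgeR. Medians of 5 groups were −0.25 for 13 genes of other laminin receptors and the costamere, −0.13 for 14 of membrane repair, −0.09 for 18 of dystroglycan glycosylation, −0.07 for 20 laminins and basement membrane genes, and 0.00 for 15 dystrophin relatives and cytoplasmic partners.

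With RIN, 0 of 85 pathway genes tested passed in edgeR and 18 had an unadjusted p under 0.05, where 0% and 13.8% of all genes did. DESeq2 called SPTBN1, a spectrin of the membrane skeleton (log2 slope 0.09, edgeR adjusted p = 0.151, DESeq2 adjusted p = 0.0120), and DPM3, needed for dystroglycan mannosylation (−0.12, edgeR adjusted p = 0.151, DESeq2 adjusted p = 0.0317). NID1 (0.18), LAMC3 (0.47) and COL6A3 (0.23) of the basement membrane list had the next highest slopes by p, and POMT1 (−0.10), LARGE2 (−0.62) and GMPPB (−0.09) of the glycosylation list the next lowest, none of which passed in edgeR (adjusted p between 0.151 and 0.257). Between the sexes, 0 of 83 pathway genes passed and 13 had an unadjusted p under 0.05, where 0.215% and 8.42% of all genes did. COL15A1 (0.87 in males, edgeR adjusted p = 0.206) and TRIM72 (−0.95, edgeR adjusted p = 0.412) had the smallest p in each direction. With age, 0 of 85 passed and 5 had an unadjusted p under 0.05, where 0% and 7.41% of all genes did. CAVIN4 (0.59 per 10 years) and CAPN3 (−0.34) had the smallest p in each direction (edgeR adjusted p = 0.657 for both). DESeq2 called no pathway gene with sex or age.

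In dispersion the pathway groups lay on both sides of the members, whose median was 0.24. Of all expressed genes 44.4% were above 0, with a median of −0.13. Of 16 expressed genes of dystroglycan glycosylation 3 were above 0 (median −0.53), as were 13 of 20 laminins and basement membrane genes (median 0.60) and 10 of 14 membrane repair genes (median 0.54). SGCE, epsilon-sarcoglycan, and SSPN, sarcospan, were above 0, at 0.66 and 0.34. Of the dystrophin relatives and cytoplasmic partners 5 of 13 were above 0 (median −0.06), as were 5 of 13 other laminin receptors and costamere genes (median −0.06).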

How the data were processed

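RNA-seq of 38 chimpanzee hearts was used. Per the labels and file headers, the authors aligned 75 bp reads with STAR 2.6.1b to Pan_tro 3.0 (Ensembl 95). Gene counts came from STAR's own counting (GeneCounts mode, strand setting not given in the sources used here) and orthologous exon counts from featureCounts 1.6.3. The authors deposited both counts without normalization, and the authors' normalized matrix, a score without units, covers 37 animals and 7 members. Of the per-sample columns, 52 were not used. CPM took the orthologous exon total as library size, with a pseudocount of 0.5 in log2 CPM. Extraction date, sex, RIN, age and center came from the study's sample table.

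Levels were tested with edgeR 4.0.16 (TMM, filterByExpr, quasi-likelihood, Benjamini-Hochberg over all genes, threshold 0.05) in R 4.3.3, with DESeq2 1.42.0 as an alternative. Year was adjusted for sex, sex for year, and RIN and age for both. Tested on simulated data, a 2-fold year difference was found in 149 of 200 genes and a RIN slope of 0.25 in 110 of 200. Relations used 100000 permutations, adjusted over 104932 relations of members with expressed genes, or over 13121 genes per marker mean and for mitochondrial percent. Dispersion came from a negative binomial fit and a LOESS trend (degree 1, span 0.75), with 1000 redraws of the animals for the SE.

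Members, gene lists and markers were chosen with earlier results of these data known. Named genes are the members, pathway genes with the smallest p (at most 4 per direction and comparison), the 3 genes most like each member, and markers. Some listed genes are not reported here. SGCE and SSPN were named after their values were seen. Each heart is a single sample. Tests treated the hearts as independent although some animals were related, so p-values may be too small and concern these hearts only.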

Additional observations from a re-analysis of the deposited data

How the results depend on the processing

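The count of members passing between extraction years, 1 with edgeR, was 0 with the orthologous exon total as library size (16.3% of all genes called), without a filter on low counts (13.8%), without the 2 hearts that stand apart (13.4%), with RIN as a covariate (15.1%), in Yerkes hearts alone (2.08%) and without the 7 animals with HBV or HCV noted (14.4%). Pathway genes passing between years were 5 (16.1% of all genes called), and 8 with DESeq2 (19.7%). With RIN they were 0 (0%), and 2 with DESeq2 (1.06%). Member pairs passing were 12 (14.9% of all relations called positive) and 6 without the 2 hearts that stand apart (9.58%). They were 17 with TMM library sizes (25.7%) and 10 with values centred within year (11.5%). With the deposited normalized matrix, which does not hold DMD, 0 of 21 pairs passed. The share of all relations there is not given, so this count cannot be read as a result about the members. Relations with markers that passed were 16, with 10 without the 2 hearts, 18 with TMM and 15 centred within year. The share of all genes called differs by marker list and setting, so these counts have no single share beside them. Members related to mitochondrial percent were 6 (20.5% of genes called negative), and 2 centred within year (15.4%). Members with a different spread between years were 1 (6.65% of genes called larger in the later year), and 0 with the cardiomyocyte marker mean taken out (0.526%).

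Directions changed without the 2 hearts for SGCD by year (0.030), for the RIN slopes of DTNA (0.024) and SGCD (0.012), for the dispersion of DAG1 (−0.55), for the ratio of SGCA to SGCB (0.018) and for the spread of SGCD (−0.066). In hearts of the earlier year alone they changed for the RIN slopes of DTNA (0.11) and SGCD (0.12) and the dispersion of DMD (−0.54) and DAG1 (−1.07). In hearts of the later year without the 2 hearts, the RIN slopes of DTNA (0.013), DAG1 (0.0064) and SGCA (0.010) changed. In Yerkes hearts alone the ratios of LAMA2 to DAG1 (−0.26) and SGCD to SGCB (−0.12) changed, and with the cardiomyocyte mean taken out the spread of SGCA (−0.24) and SGCD (−0.18). Relations that had not passed over 38 hearts changed sign without the 2 hearts as well, among them DTNA with SGCA (0.34 to −0.05), SGCA with SGCB (0.11 to −0.21), UTRN with DAG1 (−0.12 to 0.31) and the cardiomyocyte markers with SGCB (0.27 to −0.04) and UTRN (−0.08 to 0.13). The cause was not tested. Values within a year, covariates of cell content, spread by year, mitochondrial percent and the set without the 7 animals were added after seeing the data. Orthologous exon counts of the members were not run, since no table used here names them. Depth limits SGCD most, at 94 counts in Little_R. No paired analysis was possible because the samples form 1 group.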
